A study of Mus musculus with 9 samples.

Results

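The 29 cytoplasmic ribosomal proteins of the small (40S) subunit were followed at the mRNA level in extracellular vesicles (EVs), the membrane particles that cells release with RNA inside. Members were taken by gene name, with pseudogenes left out, and 28 of the 29 had probes under their own name on the array, out of 36492 gene names. Rps23 was not analysed here. Each gene was read from the probe with the highest mean signal. The EVs came from mouse embryonic fibroblasts (MEFs), which are connective tissue cells. Per the study's methods MEFs were grown with serum, and transfected cells were kept in serum-free medium for EV collection. PBS-treated MEFs gave 5 arrays and control MEFs gave 4 arrays. PBS is phosphate-buffered saline, and whether these cells were pulsed as well is not in the labels, nor are a genotype and an age. Nothing in the labels says that replicates were separate cultures, so p-values measure the spread between these arrays, which may be technical. In bulk EV RNA, fewer EVs and less of an mRNA per EV cannot be told apart.

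The small subunit holds the mRNA channel and reads the codons. Its proteins sit around the ribosomal RNA in the head, where tRNAs and mRNA enter, and in the body with its platform. The mRNAs of most ribosomal proteins begin with a C followed by a run of pyrimidines, the terminal oligopyrimidine (TOP) tract, and growth signals through mTOR and the RNA-binding protein LARP1 control their translation together. Rps6 is the subunit protein that S6 kinases phosphorylate, and Rps27l is a close paralogue of Rps27 that is a known p53 target. Rps27a and Fau are made as fusions, with ubiquitin and with the ubiquitin-like FUBI.

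Probe sequences are shown because a ribosomal protein mRNA shares much of its sequence with processed pseudogenes and a probe may bind several of these RNAs. Each is 60 bases long and written 5′ to 3′ as on the array, and positions are those of the array's mm9 annotation. The Rps6 and Rps16 probes are those of the members with the lowest fitted difference and the smallest p, and the paralogues Rps27 and Rps27l are set against each other below. The Rps6 probe (chr4:86500748-86500807, minus strand) and the Rps16 probe (chr7:29137597-29137656, plus strand) are each placed on an unbroken stretch. Of the 4 Rps27 probes the one shown is the only one open in any of the 3 reading frames, and it is not the probe behind the Rps27 values below. Its own difference was -0.23 ± 0.13 (adjusted p = 0.171), which did not pass. It is annotated at chr9:114891672-114891731 on the minus strand. The brightest Rps27 probe, which gave the values, is annotated at chr9:114891509-114891568 on the same strand, has no open frame and is not printed. RefSeq places Rps27 itself on chromosome 3, so these annotated places are not that of the gene. The Rps27l probe maps across chr9:66795486-66797176 on the plus strand, a stretch longer than the probe, so it crosses a splice junction. Capitals mark the first stop triplet read from that probe's first base, with 12 bases after it.
Rps6: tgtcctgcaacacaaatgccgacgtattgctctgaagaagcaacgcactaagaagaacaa
Rps16: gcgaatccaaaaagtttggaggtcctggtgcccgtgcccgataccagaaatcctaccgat
Rps27: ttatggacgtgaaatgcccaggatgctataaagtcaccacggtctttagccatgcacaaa
Rps27l: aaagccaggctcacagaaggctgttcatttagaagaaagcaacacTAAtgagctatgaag
The longest run that the Rps27l probe shares with the printed Rps27 probe is 5 bases, and it is also 5 bases with the brightest Rps27 probe.

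Each array read 62976 spots. The number of probes well above background was 16492 to 19233 on the PBS-treated arrays and 12584 to 15554 on the control arrays. All 28 chosen probes were well above background on all 9 arrays, and no spot of a noncontrol probe was saturated. The arrays lay on 2 slides: PBS-treated 1 to 3 and control 1 and 2 on slide 1, PBS-treated 4 and 5 and control 3 and 4 on slide 2. The array of PBS-treated 3 stood apart among these members. It was the lowest of the 5 PBS-treated arrays for 11 of the 28 members and the highest for 10, and its distance from the mean of the other 4 had an SD of 0.56 log2 units over the members, against 0.16 to 0.36 for the other PBS-treated arrays and 0.18 to 0.26 for the control arrays. Of the fibroblast markers 9 of 10 passed the filter on dim probes, with Thy1 well above background on no array. Of these 9, Fn1, Pdgfra and Col1a1 were called lower and Dcn and Lum higher, with a median difference of -0.44. Of the markers of other cells, 3 of 7 leukocyte genes, 1 of 5 epithelial genes and 2 of 4 endothelial genes passed, and Adgre1, Epcam and Cdh5 were above background on no array. Of the 3 leukocyte genes Itgam and Csf1r were called lower, and Cd14 was higher by 2.21 log2 units. The tested epithelial gene and both endothelial genes were called lower. The summed linear levels of the tested leukocyte markers were 1.05 to 2.05 in PBS-treated EVs and 2.09 to 3.02 in control EVs. Those of the endothelial markers were 0.0881 to 0.133 in PBS-treated EVs and 0.231 to 0.380 in control EVs. Krt19, the tested epithelial marker, had 0.00961 to 0.0177 in PBS-treated EVs and 0.0159 to 0.0358 in control EVs. The fibroblast markers summed to 12.2 to 14.4 in PBS-treated EVs and 11.4 to 13.9 in control EVs. The part of these cells in the results on the members was not tested.

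Levels are given as the log2 processed signal minus the array's 75th percentile over probes well above background on all 9 arrays, so a level of 4 lies 4 log2 units above that percentile. On this scale 14 of the 28 members were lower in PBS-treated EVs, 1 was higher and 13 did not pass the test (limma, Benjamini-Hochberg adjusted p under 0.05 over 14319 genes), whereas with spike-in scaling 25 members were higher and none was lower. Over all genes 20.7% were called lower and 31.5% higher. The members' differences ran from -0.96 to 0.57, with a median of -0.45 beside a median of -0.02 over all genes. No member changed by as much as 2-fold. In a separate fit of only the 7212 genes with a probe well above background on all 9 arrays, the brighter part of the table, 29.6% were called lower. In that fit 15 of the 28 members were called lower.

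All 5 PBS-treated arrays lay below all 4 control arrays for 14 members, beside 17.6% of all genes, and these were the members called lower on the percentile scale. The plot of each member by array shows these as separate red and blue clusters on either side of a gap. For no member did all PBS-treated arrays lie above all control arrays.

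**Figure D1:**
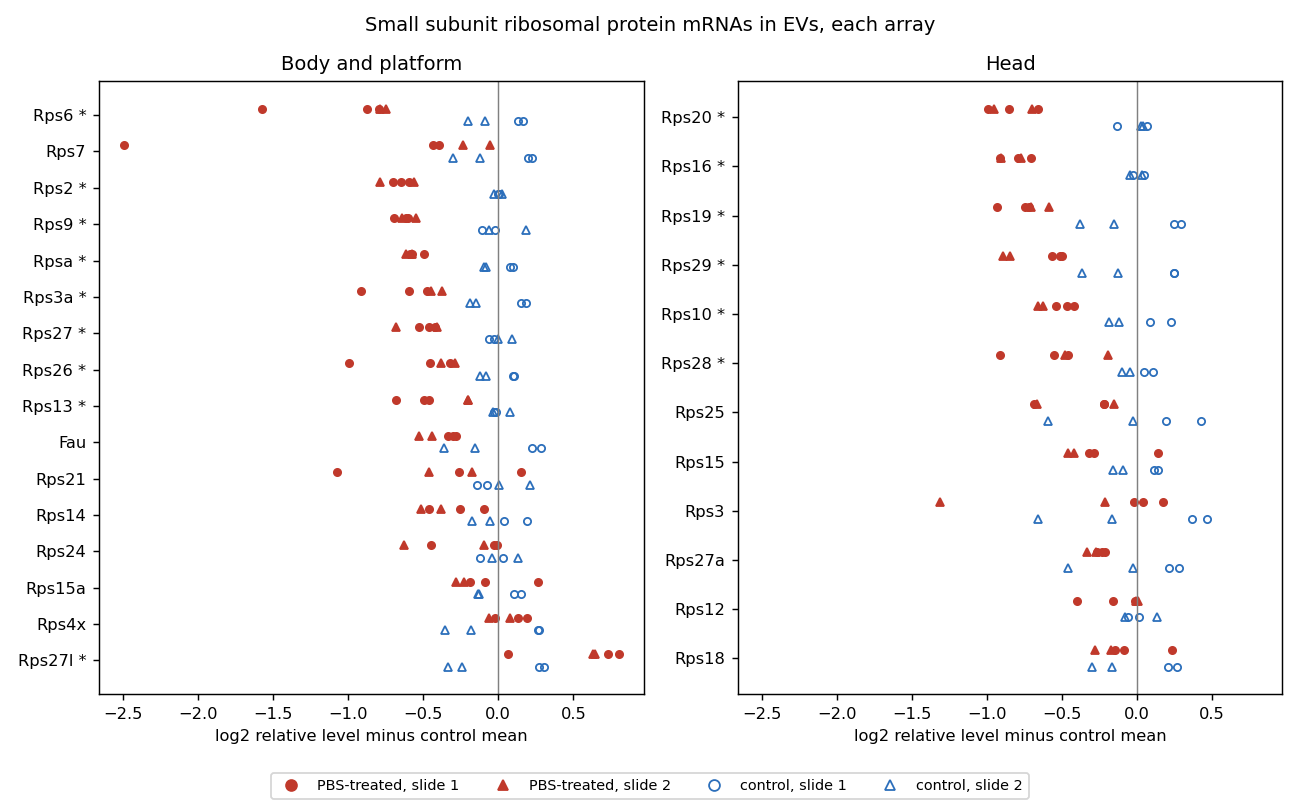
Each row is a member, with the log2 relative level of every array minus the mean of the control arrays on the horizontal axis. Red filled marks are PBS-treated arrays and blue open marks control arrays, circles are slide 1 and triangles slide 2, and an asterisk marks an adjusted p under 0.05. On this scale 14 members lie lower and Rps27l higher in PBS-treated EVs, while spike-in scaling turns 25 members higher.

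The direction of the family rested on how the arrays were scaled. The all-gene median difference was -0.02 with the 75th percentile of detected probes, 0.39 with the 75th percentile of all probes, 0.23 with quantile normalization, 1.21 with the 7 detected spike-in probes, -0.51 with normexp background correction and 0.10 in the deposited log2 values. The members' median was -0.45, -0.04, -0.16, 0.78, -0.37 and -0.04 under the same settings. Relative to the all-gene median, the members lay at -0.43 under either percentile and under the spike-ins, at -0.39 with quantile normalization and at -0.14 in the deposited values, but at 0.15 with normexp. The percentiles and the spike-ins each shift all genes of an array by 1 constant, so they share the value of -0.43 by construction. With no filter on dim probes the members lay 0.66 above the all-gene median, which was then -1.11. Spike-in scaling adds 1.23 to every difference and leaves the order of genes as it was. With quantile normalization 3 members were called lower beside 14.8% of all genes, with normexp 7 beside 32.6%, and in the deposited values 2 beside 13.2%. The 75th percentile of detected probes lay 3.78 to 4.05 log2 units under the spike-in level on the PBS-treated arrays and 5.09 to 5.21 units under it on the control arrays. Against the spike-ins 61.4% of all genes were called higher.

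**Figure D2:**
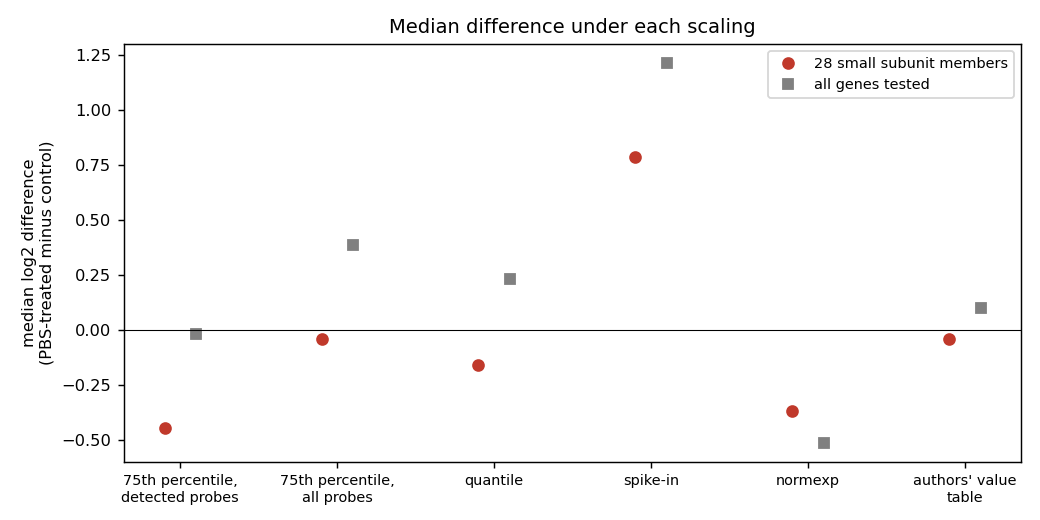
Median log2 difference, PBS-treated minus control, of the 28 members (red circles) and of all genes tested (grey squares) under 6 ways of scaling. The members lie below all genes in each except normexp, with equal gaps by construction under both percentiles and the spike-ins, and lie above 0 with spike-in scaling, where their median was 0.78.

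Rps6, the S6 kinase substrate, had the lowest fitted difference. Its relative level was 3.68, 3.60, 2.91, 3.69 and 3.73 in PBS-treated EVs, against 4.64, 4.61, 4.27 and 4.39 in control EVs. PBS-treated 3 was lowest, and the groups did not overlap. The group means were 3.52 ± 0.35 with PBS treatment (SD, n = 5) and 4.48 ± 0.18 in the controls (SD, n = 4). The difference was -0.96 ± 0.20 (SE, adjusted p = 0.00341), while the spike-in difference was 0.27 (adjusted p = 0.231). Without PBS-treated 3 the difference was -0.80 (adjusted p = 0.00139). A second Rps6 probe gave -0.96 ± 0.21 (adjusted p = 0.00461), and the last gave -0.23 ± 0.14, which did not pass.

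Rps16, a head protein whose tail reaches the tRNA in the P site, was the member with the smallest p. It stood at 4.46, 4.34, 4.55, 4.35 and 4.48 in PBS-treated EVs and at 5.23, 5.30, 5.21 and 5.29 in control EVs. The spread within each group was far below the gap between them. The difference was -0.82 ± 0.10 (adjusted p = 0.000195), and it was 0.41 (adjusted p = 0.0103) against the spike-ins. A second probe of Rps16 gave -0.77 ± 0.25 (adjusted p = 0.0291), and the last gave -0.08 ± 0.16, which did not pass.

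Rps20, another head protein, had levels of 5.43, 5.23, 5.10, 5.39 and 5.14 in PBS-treated EVs, against 6.16, 5.96, 6.12 and 6.13 in control EVs. The difference was -0.83 ± 0.12 (adjusted p = 0.000457), with no overlap between groups. It had a single probe. With spike-in scaling the sign turned, to 0.40.

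Rps2 lies at the mRNA entry channel on the body. It had 4.63, 4.58, 4.69, 4.72 and 4.49 in PBS-treated EVs and 5.28, 5.28, 5.25 and 5.30 in control EVs, a difference of -0.66 ± 0.10 (adjusted p = 0.000611). The control arrays agreed to an SD of 0.02. Its second probe gave -0.64 ± 0.11 (adjusted p = 0.00127). The annotation puts the chosen probe at chr17:42864841-42864900 and the second at chr17:24857583-24857642. The RefSeq start window of Rps2 is chr17:24720038-24720087 (GRCm38.p6), near the place of the second probe and not that of the chosen one. With spike-in scaling the chosen probe gave 0.57.

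Rps9, whose bacterial counterpart starts the assembly of the body, had 3.85, 3.94, 3.93, 3.90 and 3.99 in PBS-treated EVs, against 4.43, 4.52, 4.48 and 4.73 in control EVs. The groups did not overlap, and the difference was -0.62 ± 0.11 (adjusted p = 0.00128), turning to 0.61 with spike-in scaling.

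Rpsa, also known as the laminin receptor, had 4.91, 5.0, 4.90, 4.92 and 4.88 in PBS-treated EVs, against 5.59, 5.57, 5.41 and 5.39 in control EVs. Slide 1 controls were the highest and no array crossed between groups. The difference was -0.57 ± 0.10 (adjusted p = 0.0015), or 0.66 with spike-in scaling. Its 3 other probes gave -0.86, -0.31 and -0.25, of which the first passed the test.

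The other members called lower were Rps19 at -0.74, Rps29 at -0.66, Rps3a at -0.56, Rps10 at -0.54, Rps28 at -0.52, Rps27 at -0.50, Rps26 at -0.49 and Rps13 at -0.41, all of them turned to higher by spike-in scaling. Rps19, Rps10 and Rps26 are among the genes mutated in Diamond-Blackfan anaemia, an inherited failure of red cell production. Rps29 had 3 probes, at -0.66, -0.84 and -0.94, and each of them passed. All 3 are annotated on chromosome 2, whereas RefSeq places the gene on chromosome 12. Rps26 and Rps13 were the least firm of the 14: leaving out each array in turn, they passed in 4 and in 3 of the 9 fits, and the other 12 passed in all 9.

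**Figure D3:**
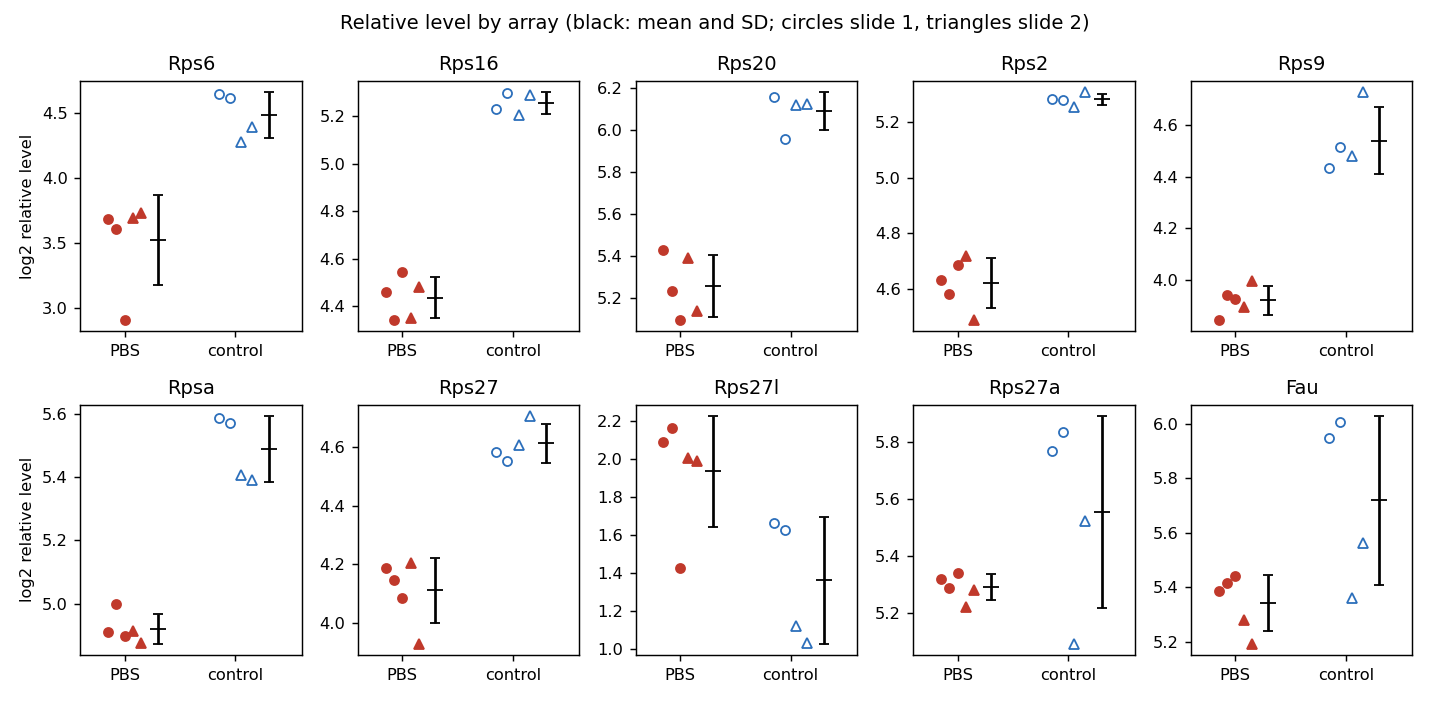
Log2 relative level of 10 members on every array, PBS-treated left and control right, with circles for slide 1 and triangles for slide 2. Black bars are the mean and SD of the group; on this scale Rps6, Rps16, Rps20, Rps2, Rps9, Rpsa and Rps27 do not overlap between groups, whereas spike-in scaling turns their direction.

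The ubiquitin fusions did not pass. Fau had 5.38, 5.42, 5.44, 5.28 and 5.19 in PBS-treated EVs, against 5.95, 6.01, 5.36 and 5.56 in control EVs, so that control 3 lay inside the PBS-treated range. Its difference was -0.38 ± 0.16 (adjusted p = 0.0782, 95% interval -0.74 to -0.01). It passed with slide as a block (adjusted p = 0.0104) and without control 3 (-0.50, adjusted p = 0.0217). Rps27a had 5.32, 5.29, 5.34, 5.22 and 5.28 in PBS-treated EVs, against 5.77, 5.84, 5.09 and 5.53 in control EVs. Control 3 was the lowest array of all, and the difference was -0.27 ± 0.16 (adjusted p = 0.200, 95% interval -0.64 to 0.10). Without control 3 it was -0.42 and passed (adjusted p = 0.0179).

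Rps7, which binds the p53 regulator Mdm2, was set by a single array. It had 1.92, 1.96, -0.14, 2.12 and 2.30 in PBS-treated EVs, against 2.58, 2.55, 2.23 and 2.05 in control EVs. PBS-treated 3 lay 2.21 log2 units under the mean of the other PBS-treated arrays. The difference was -0.72 ± 0.48 (adjusted p = 0.236), and its sign differed between slides, at -1.32 on slide 1 and 0.07 on slide 2.

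Rps4x, encoded on the X chromosome, and Rps18 also changed sign between slides. The Rps4x probe is annotated at chr3:112105991-112106050 on the plus strand, which is not the place of the gene. Rps4x had 2.11, 2.17, 1.95, 1.91 and 2.05 in PBS-treated EVs, against 2.24, 2.25, 1.62 and 1.79 in control EVs. On slide 1 its 3 PBS-treated arrays lay below both controls, and on slide 2 its PBS-treated arrays lay above both. The interaction of slide and group gave 0.44 ± 0.18 with an adjusted p of 0.163. Rps18 had 3.44, 3.50, 3.82, 3.31 and 3.42 in PBS-treated EVs, against 3.80, 3.85, 3.29 and 3.42 in control EVs, a difference of -0.09 ± 0.17 (adjusted p = 0.655).

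Probes of one gene disagreed in sign for Rps3a and Rps24, and in both the probe with a positive difference was another than the chosen one. For Rps3a the chosen probe had 2.19, 2.07, 1.75, 2.22 and 2.29 in PBS-treated EVs, against 2.85, 2.82, 2.47 and 2.52 in control EVs, with no overlap, while its other probe gave 0.18 ± 0.41 (adjusted p = 0.729). For Rps24 the chosen probe had 4.88, 4.44, 4.86, 4.79 and 4.26 in PBS-treated EVs, against 4.92, 4.77, 5.02 and 4.85 in control EVs, and the groups overlapped. Its difference was -0.24 ± 0.16 (adjusted p = 0.238), and the other probes gave -0.08 and 0.09. Rps3 went the other way round: the chosen probe gave -0.27 ± 0.36 (adjusted p = 0.543) and the second -1.54 ± 0.14 (adjusted p = 4.9e-05), so the call for Rps3 depended on the probe. Over the 24 other probes that passed the filter, from 16 members, 22 had a negative difference and 10 were called lower on this scale. Over all genes the median difference was -0.02 and 20.7% were called lower, and the shares over all probes were not counted. Of the 15 other probes of called members, 8 were called too.

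The remaining members that did not pass were Rps25 at -0.39, Rps21 at -0.37, Rps14 at -0.34, Rps15 at -0.27, Rps12 at -0.12 and Rps15a at -0.10. Rps14, which contacts the mRNA on the platform, came nearest to the threshold (adjusted p = 0.0584), and with slide as a block it passed (adjusted p = 0.0189). It also passed without PBS-treated 3 (adjusted p = 0.0313) or without control 4 (adjusted p = 0.0486), as did Rps15 without PBS-treated 3 (-0.37, adjusted p = 0.0351) and Rps25 without control 4 (-0.59, adjusted p = 0.0374). A second probe of Rps12 gave -0.81 ± 0.33 (adjusted p = 0.0656).

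Rps27l was the only member called higher on this scale. It had 2.09, 2.16, 1.43, 2.01 and 1.99 in PBS-treated EVs, against 1.67, 1.63, 1.12 and 1.03 in control EVs. PBS-treated 3 lay below both slide 1 controls, so the groups overlapped. The group means were 1.94 ± 0.29 with PBS treatment (SD, n = 5) and 1.36 ± 0.33 in the controls (SD, n = 4). The difference was 0.57 ± 0.21 (adjusted p = 0.0461), or 1.49-fold. The call was lost in 6 of the 9 fits that left out 1 array (adjusted p = 0.0819 to 0.120), and without PBS-treated 3 it held (0.70, adjusted p = 0.0137). With spike-in scaling the difference was 1.80 (adjusted p = 4.43e-05). Among the 28 members Rps27l had the highest difference with quantile normalization, with normexp and on each slide alone. In the deposited log2 values it ranked 4 from the highest. It did not pass with quantile normalization (0.64, adjusted p = 0.0612) or with normexp (0.35, adjusted p = 0.470). Nor did it pass in the deposited values (0.46, adjusted p = 0.367) or on slide 1 alone (0.25, adjusted p = 0.440). On slide 2 alone it passed (0.92, adjusted p = 0.00611).

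Its paralogue Rps27 had 4.19, 4.15, 4.09, 4.21 and 3.93 in PBS-treated EVs, against 4.58, 4.55, 4.61 and 4.70 in control EVs. The groups did not overlap, and the difference was -0.50 ± 0.11 (adjusted p = 0.00394), turning to 0.73 with spike-in scaling. The 4 Rps27 probes gave -0.50, -0.50, -0.23 and -0.29, and the first pair passed the test. A shift of a whole array cancels in the difference of the paralogues within that array. Rps27l minus Rps27 was -2.10, -1.98, -2.66, -2.20 and -1.94 log2 units in PBS-treated EVs, against -2.92, -2.92, -3.49 and -3.67 in control EVs. Every PBS-treated array lay above every control array. The mean shift between groups was 1.07 (exact permutation test over all splits of the 9 arrays, two-sided p = 0.0159). These splits take no account of the slides. The calls of Rps27l and Rps27 come from the same arrays, so this p is not separate support for them. Within slide 1 the shift was 0.67 (exact p = 0.200, where no exact test could go below 0.10). Within slide 2 it was 1.51 (exact p = 0.333), the smallest two-sided p that the 6 splits of those arrays allow. With normexp the shift was 0.48 (exact p = 0.421) and in the deposited log2 values 0.37 (exact p = 0.651), and on both scales PBS-treated 3 lay below all other arrays, at -4.08 and -4.29. Without that array these shifts were 0.99 and 0.90 (exact permutation p = 0.0286 for each), a choice made after seeing the data. With each of the other 3 Rps27 probes in turn the shift was 0.87, 1.08 and 0.80 (exact p = 0.0397, 0.0159 and 0.0159).

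**Figure D4:**
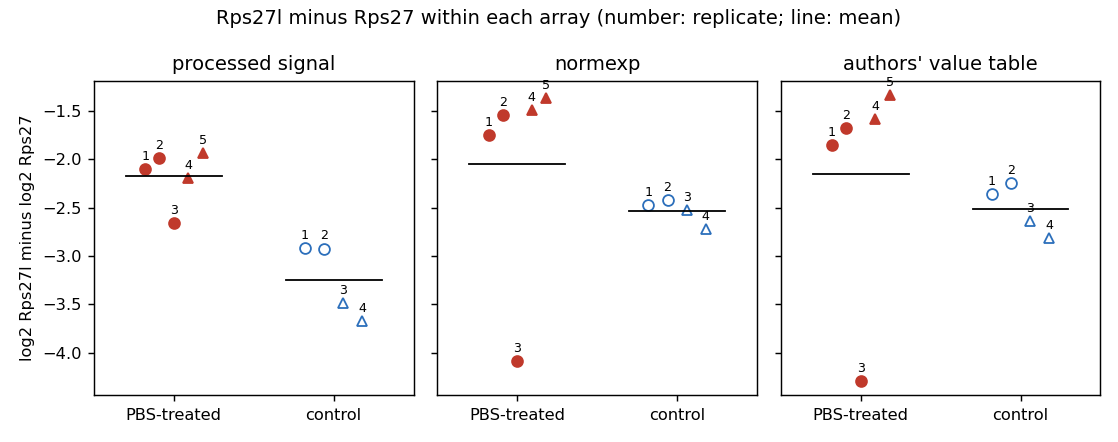
Log2 Rps27l minus log2 Rps27 within each array from the processed signal, after normexp and in the deposited log2 values, PBS-treated left and control right. Numbers are replicates, circles slide 1, triangles slide 2, and lines the group means. In the first panel the groups are apart, from -2.66 to -1.94 in PBS-treated EVs and from -3.67 to -2.92 in control EVs, and in the other panels PBS-treated 3 falls below every other array.

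Within each slide most members had a negative difference on this scale. Negative differences were seen in 27 of the 28 members on slide 1, in 24 on slide 2 and in 24 on both. On slide 1 alone 17 members were called lower beside 31.3% of all genes, on slide 2 alone 9 beside 30.3%, and with slide as a block 16 beside 34.3%; with spike-in scaling the members' direction turned. The members' median was -0.57 on slide 1 and -0.32 on slide 2, beside -0.07 and 0.09 over all genes. The slide differences of the 28 members correlated at r = 0.50 and rho = 0.41, as a description over members that share arrays and probes. The interaction was called for 9.39% of all genes and for no member, with 3 members at an unadjusted p under 0.05, and the nearest was Rps19 (0.69 ± 0.19, adjusted p = 0.0661).

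**Figure D5:**
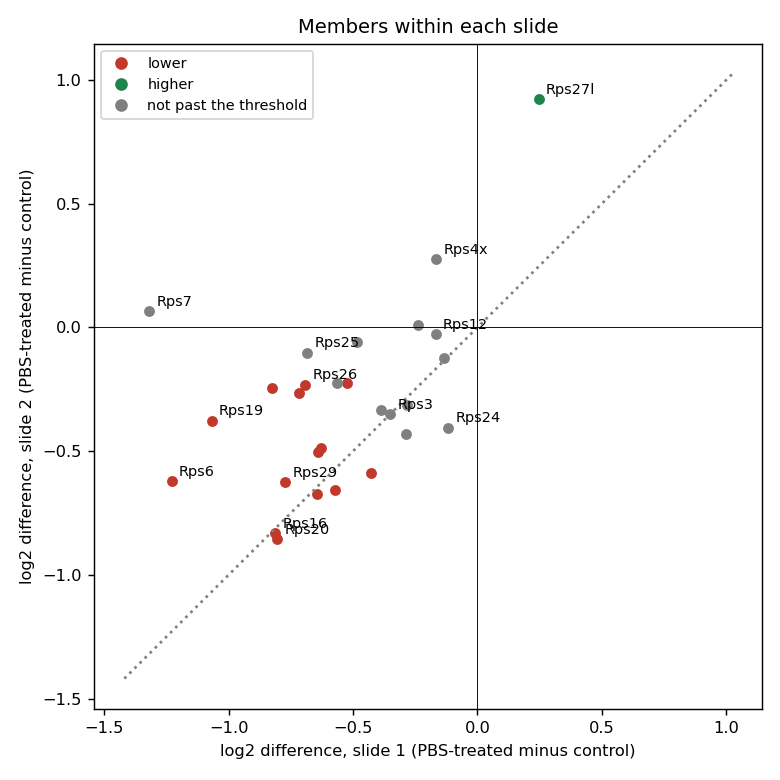
Each point is a member, with its log2 difference, PBS-treated minus control, on slide 1 horizontally and on slide 2 vertically, and the dotted line marks equal values. On this scale, which spike-in scaling turns, 24 of the 28 members lie below 0 on both slides and Rps27l lies above 0 on both, at 0.25 and 0.92.

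The members were then split by place and by conservation. Of the head proteins 6 of 12 were called lower, with a median of -0.46, and of the body and platform proteins 8 of 16, with a median of -0.45. Proteins with a bacterial counterpart had 7 of 12 called lower (median -0.49), and those without one 7 of 16 (median -0.44). All of these medians lie above 0 with spike-in scaling, as does the family's. The large subunit proteins, the partners of this family in the ribosome, had 20 of 49 called lower and none higher, with a median of -0.33, led by Rpl9 at -1.18 ± 0.10, Rpl8 at -1.02 ± 0.11 and Rpl37 at -1.17 ± 0.13, which spike-in scaling turns to 0.05, 0.21 and 0.06.

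Lists of genes that build or use the small subunit were counted over genes well above background on all 9 arrays, since a dim gene can pass the filter through PBS-treated arrays alone. Of the 7175 such genes in the fit over all genes, 31.3% were called higher and 27.6% lower on the percentile scale. The share of 29.6% given above came from the separate fit of bright genes alone. No test compared a list with these genes. Of 16 assembly factors, which process the precursor of the subunit, 10 were called higher and 4 lower, with a median of 0.58. The box C/D protein Nop58 was at 1.56 ± 0.14. Of 18 initiation factors that bind the subunit, 11 were called higher and 4 lower (median 0.59), among them Eif5 at 1.90 ± 0.17 and Eif2s2 at 1.87 ± 0.17. Of 26 mitochondrial small subunit proteins, 13 were called higher and 2 lower (median 0.43), with Mrps18c at 1.13 ± 0.11. Of 10 genes of S6 kinase and TOP mRNA control, 6 were called higher and 1 lower, and the lower one was the mTOR inhibitor gene Tsc1 at -2.63 ± 0.17. Rps6kb1, the S6 kinase gene, chosen after its values were seen, was at 1.22 (adjusted p = 0.000499). Of 10 p53 targets, the class that holds Rps27l, 3 were called higher and 4 lower (median -0.25), and the cell cycle inhibitor gene Cdkn1a was at -1.69 ± 0.11.

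The windows around the start sites of the members were searched for long pyrimidine runs, wherever in the window they lay. RefSeq start windows (GRCm38.p6, 25 bases before and 25 after the start, first listed start of a gene) were matched for 25 of the 29 members. They are shown for Rps6, Fau, Rps27 and Rps27l, whose values are given above, and for Rps16 as a member without a long run. Capitals mark the longest run of C and T on the gene's strand, or the first of these where runs tie.
Rps6: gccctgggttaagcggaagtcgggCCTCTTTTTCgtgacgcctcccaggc
Fau: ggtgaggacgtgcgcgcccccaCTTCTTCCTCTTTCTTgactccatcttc
Rps27: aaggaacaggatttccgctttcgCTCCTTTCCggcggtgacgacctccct
Rps27l: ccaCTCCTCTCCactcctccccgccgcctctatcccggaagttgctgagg
Rps16: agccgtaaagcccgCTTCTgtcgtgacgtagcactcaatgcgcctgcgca
They lie at chr4:86857343-86857392 (minus), chr19:6057922-6057971 (plus), chr3:90213624-90213673 (minus), chr9:66946061-66946110 (plus) and chr7:28350664-28350713 (plus). The run spans the annotated start in Rps6, Fau and Rps27, where it is 10, 16 and 9 bases long, whereas in Rps27l the marked run of 9 bases and another of equal length after it lie upstream of the start. A run of at least 8 pyrimidines was found in 12 of the 25 members (48.0%), beside 18 of 36 large subunit genes and 19.4% of 27025 promoters. Rps27l, whose runs lie upstream, is among the 12. Rps21, with a run of 7 from 2 bases before the start, is not. The counts and the medians that follow therefore do not separate TOP mRNAs from others. The median difference was -0.38 for the 12 tested members with such a run and -0.54 for the 12 without, on the percentile scale that spike-in scaling turns. The motif CTTCC, searched on both strands over 250 bases before and 50 after the start, was present in 24 of the 25 members (96.0%) and in 71.1% of all promoters. It can overlap a pyrimidine run, as in Fau.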

How the data were processed

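EV RNA was hybridised to 1-colour Agilent 8x60K mouse arrays, and per the file headers the authors quantified the scans with Agilent's Feature Extraction, version 10.7.3.1. The deposited scanner files hold intensities, already background-corrected in the processed signal. The deposited value table holds log2 values made from the mean signal. The study's methods name SLIMarray, a pipeline of the Institute for Systems Biology, and its normalization settings are not given in the sources used here. Spots of a probe were averaged, and 26413 of 55681 probes were matched to RefSeq by accession. Log2 processed signals were set to each array's 75th percentile over 8422 probes that were well above background on every array. Probes well above background on at least 4 arrays were kept, the brightest per gene (14319 genes) was tested with limma 3.58.1 (R 4.3.3), and p-values were adjusted by Benjamini-Hochberg with a threshold of 0.05. The methods name a two-tailed t-test, which was run as an alternative. The fit was tested on simulated data with independent noise for each gene and array. That simulation held no slide effect, so it could not test the fit against differences between slides. All members were to be accounted for, with values on each array for the 4 lower members of smallest p, the higher ones, Rps27a, Fau, Rps27, Rps6, Rpsa and those whose probes or slides differed in sign, and at most 3 genes of other lists. Members and lists were chosen with earlier results of these data known. The number of arrays limits the precision. Alternatives covered scaling, background, filter, probe, slide, replicate block and left-out arrays.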

Additional observations from a re-analysis of the deposited data

Results flagged for a closer look

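Chance gives a value far from the rest of its group in about 1 in 20 independent groups. The 56 groups here (28 members in PBS-treated and in control EVs) share the same arrays, so their count cannot be set against that rate. In 6 of the 56 groups a value lay far from the rest. In 4 of the 6 it was the array of PBS-treated 3, which lay below the other PBS-treated arrays: Rps6 at 2.91 (the others 3.60 to 3.73), Rps7 at -0.14 (1.92 to 2.30), Rps26 at 3.30 (3.84 to 4.01) and Rps27l at 1.43 (1.99 to 2.16). Rps3 stood at -2.42 on the array of PBS-treated 5 (the others -1.32 to -0.93). Rps13 stood at 4.04 on control 3 (the others 3.93 to 3.95). With normexp the members' distance of PBS-treated 3 from the other 4 arrays of its group ran from -3.29 to 0.96, and in the deposited log2 values from -3.20 to 1.44. The cause was not tested.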

How the results depend on the processing

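Beside 14 members lower and 1 higher, 0 were lower and 0 higher with the 75th percentile over all probes (median -0.043, with 4883 genes called in place of 7477), 0 and 25 with spike-in scaling (median 0.78), 3 and 0 with quantile normalization (median -0.16), 7 and 0 with normexp, 2 and 1 in the deposited log2 values (median -0.044), and 7 and 0 with no filter on dim probes, where 14.4% of all genes were called lower. With the 75th percentile over all probes that share was 9.46%. It was 14.8% with quantile normalization, 32.6% with normexp and 13.2% in the deposited values. Slide 1 alone gave 17 and 0 (median -0.57), slide 2 alone 9 and 1 (median -0.32), the methods' t-test 15 and 0, and leaving out control 3 and control 4 together 16 and 0 (median -0.59). Of all genes 31.3%, 30.3%, 19.6% and 20.7% were called lower in these fits. Keeping genes well above background on all 9 arrays called 4507 genes. Leaving out each array in turn gave 12 to 16 lower, 0 to 1 higher, medians of -0.51 to -0.39, 6658 to 7370 genes called and a Rps27l minus Rps27 shift of 0.93 to 1.19. In these fits 18.1% to 20.4% of all genes were called lower. That shift was 0.48 (exact p = 0.421) with normexp, 0.37 (exact p = 0.651) in the deposited values, 0.67 (exact p = 0.200) on slide 1 and 1.51 (exact p = 0.333) on slide 2. Chosen after seeing the data, normexp without PBS-treated 3 gave 10 lower and 1 higher (median -0.33), and the deposited values without it 5 lower and 2 higher (median -0.060). Of all genes 29.2% and 12.8% were then called lower and 15.8% and 26.3% higher, with all-gene medians of -0.49 and 0.08.

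Against the spike-ins the differences turned to 0.27 in Rps6, 0.40 in Rps20, 0.41 in Rps16, 0.49 in Rps19, 0.51 in Rps7, 0.57 in Rps29, 0.57 in Rps2, 0.61 in Rps9, 0.66 in Rpsa, 0.67 in Rps3a, 0.69 in Rps10, 0.71 in Rps28, 0.73 in Rps27, 0.74 in Rps26, 0.82 in Rps13, 0.84 in Rps25, 0.85 in Fau, 0.86 in Rps21, 0.89 in Rps14, 0.96 in Rps15, 0.96 in Rps3, 0.97 in Rps27a, 0.99 in Rps24, 1.11 in Rps12, 1.13 in Rps15a and 1.14 in Rps18, of which Rps6, Rps7 and Rps3 did not pass (adjusted p = 0.231, 0.378 and 0.0512). In the deposited values they turned to 0.12 in Rps20, 0.10 in Rps2, 0.16 in Rpsa, 0.16 in Rps10, 0.0012 in Rps28, 0.10 in Rps27, 0.57 in Rps12, 0.80 in Rps27a, 0.54 in Fau, 0.40 in Rps14, 0.30 in Rps24 and 0.24 in Rps15a, of which Rps12 passed (adjusted p = 0.0337). Without PBS-treated 3 they stayed positive at 0.30 in Rps28, 0.42 in Rps12, 0.63 in Rps27a, 0.36 in Fau, 0.41 in Rps14, 0.35 in Rps24 and 0.11 in Rps15a. They went back to -0.08 in Rps20, -0.17 in Rps2, -0.06 in Rpsa, -0.13 in Rps10 and -0.06 in Rps27. The share of calls that were higher was 60.4% on the percentile scale, 72.3% with all probes, 92.0% with spike-ins and 28.8% with normexp. The causes were not tested.

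Replicate numbers did not pair the arrays: deviations of the same number correlated at 0.70, 0.73, -0.54 and 0.74, with number 3 on different slides. PBS-treated and control arrays of different numbers on the same slide correlated about as well, at 0.57 to 0.71. Those on different slides correlated at -0.77 to -0.54, so the correlations followed the slides and not the numbers. With the replicate number as a block 12 members were lower and 1 was higher, beside 23.5% and 28.5% of all genes. The median was -0.46, 7443 genes were called, and the calls of Rps26 and Rps13 were lost (adjusted p = 0.0584 and 0.0674). With 5 and 4 arrays on 2 slides, small differences cannot be settled, and how far a probe bound RNA of related genes was not measured.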
